A study of Homo sapiens with 12 samples.

Results

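A set of 8 NRF2-associated reductase and stress genes was followed across 4 conditions of PC3 cells: NQO1, OSGIN1, AKR1B1, AKR1B10, AKR1C1, AKR1C2, AKR1C3 and NMRAL2P. They were chosen by symbol with earlier results of these data known, so the share of them that rose is not an independent test. Their deposited expected counts were summed over all linear transcript rows of a gene, which gave these 8 members among 43613 genes in the table. PC3 is an established human prostate cancer cell line, labelled wild type. The 12 libraries comprised 3 of cells given AgNPs (silver nanoparticles), 3 of cells given DOC, 3 of cells given both agents (COM) and 3 of cells given PBS (BLANK). DOC is not spelled out in the labels, which also state neither dose nor exposure time. Whether replicates came from separate cultures is not stated either, and the p-values then measure only how far these libraries spread, which may be technical. All 8 genes were among the 19986 genes tested: 7 of them reached the filter's level of 0.626 CPM (counts scaled to the library total) in all 12 libraries, and AKR1C2 reached it in 11, with 1 BLANK library just below.

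NRF2 is a transcription factor that KEAP1 marks for degradation in resting cells. When oxidants, electrophiles or metals modify KEAP1, NRF2 accumulates, pairs with small MAF proteins and binds antioxidant response elements, whose core is TGACNNNGC. Its best known products include NQO1, which reduces quinones to hydroquinones, and several aldo-keto reductases, enzymes that use NADPH to reduce aldehydes and ketones. The AKR1C enzymes also act on steroids and prostaglandins, which is why they are followed in prostate cancer.

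Promoters of the 3 AKR1C genes are shown because the genes are near copies that stand side by side. The first promoter entries of RefSeq (GRCh38.p14) are given below as the 250 bases before an annotated start. They are those of AKR1C1 (chr10:4963165-4963414, plus strand), AKR1C2 (chr10:5003858-5004107, minus strand) and AKR1C3 (chr10:5048531-5048780, plus strand). The AKR1C2 window lies within the annotated span of that gene (4987775 to 5018000), so the start it precedes is inside the gene. Capitals mark a run of 12 bases, ATATATAGAGAT, that all 3 share. Another shared run of the same length, attggttaacca, lies nearer the start and is left in lower case.
AKR1C1: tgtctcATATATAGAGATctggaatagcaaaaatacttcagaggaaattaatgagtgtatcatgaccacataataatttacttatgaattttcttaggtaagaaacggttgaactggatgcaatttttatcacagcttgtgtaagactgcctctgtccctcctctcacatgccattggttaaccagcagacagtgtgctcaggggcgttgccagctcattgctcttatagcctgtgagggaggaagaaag
AKR1C2: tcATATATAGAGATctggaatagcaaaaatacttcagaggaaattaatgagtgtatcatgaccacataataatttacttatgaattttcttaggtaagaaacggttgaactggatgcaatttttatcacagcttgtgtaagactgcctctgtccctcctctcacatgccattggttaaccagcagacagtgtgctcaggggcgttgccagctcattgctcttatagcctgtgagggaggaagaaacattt
AKR1C3: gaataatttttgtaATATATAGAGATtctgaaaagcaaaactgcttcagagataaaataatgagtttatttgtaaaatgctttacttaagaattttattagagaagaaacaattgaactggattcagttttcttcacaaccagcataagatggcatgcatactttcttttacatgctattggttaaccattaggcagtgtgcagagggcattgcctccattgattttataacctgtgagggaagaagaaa
Over aligned positions, the AKR1C1 and AKR1C2 sequences were identical at 245 of 246 (99.6%), whereas AKR1C3 was identical to AKR1C1 at 76.8% and to AKR1C2 at 77.2%. In GENCODE v29 transcripts, 22.1% of the 100-base windows of AKR1C2 also occurred in AKR1C1, and 1.75% of those of AKR1C3 occurred in any other gene. AKR1B10 shared 1.59% with other genes, OSGIN1 shared 9.79% with the annotated gene AC009119.2, and NQO1, AKR1B1 and NMRAL2P shared none. Shorter windows of 50 bases were shared more often, at 38.9% in AKR1C2, 28.6% in AKR1C1, 14.6% in AKR1B10 and 12.1% in OSGIN1. The 50-base share was 5.45% in AKR1B1, 4.53% in AKR1C3 and 0.827% in NQO1, and NMRAL2P again shared none. The AKR1C1 and AKR1C2 values are therefore uncertain as to which of the pair a read came from.

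OSGIN1 (chr16:83952990-83953239, plus strand) held the only match to the AP-1 motif TGACTCA in the 8 promoter entries found for 6 members. The match is in capitals and lies 97 to 91 bases before the start.
OSGIN1: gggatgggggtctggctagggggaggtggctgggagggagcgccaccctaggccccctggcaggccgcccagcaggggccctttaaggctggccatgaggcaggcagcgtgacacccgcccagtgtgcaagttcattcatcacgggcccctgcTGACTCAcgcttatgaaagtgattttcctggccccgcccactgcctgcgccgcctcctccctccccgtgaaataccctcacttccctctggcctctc
Of 35116 RefSeq promoter entries of the same length, 4.2% held TGACTCA on either strand and 10.9% held TGACNNNGC. None of the 8 member entries held TGACNNNGC in this window, and the OSGIN1 match does not overlap that motif. No sequence is shown for AKR1B10 and NMRAL2P, which had no entry.

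Summed linear counts were 13049868 to 13362290 per library in AgNPs, 18603100 to 19421873 in DOC, 10996446 to 11069928 in COM and 22573481 to 22769479 in BLANK, so depth differed between the groups. A total of 3 counts corresponded to 0.132 to 0.273 CPM. Replicates scattered by more than counting error (chi-square per degree of freedom 1.46 to 4.76), most in pairs with DOC replicate 1 or BLANK replicate 1; without either library the same numbers of the 8 genes were called in every comparison with BLANK. The labelled cell type was checked by its markers: KRT8 averaged 106 ± 1.59 FPKM (fragment counts scaled to gene length and depth) in AgNPs and 90.8 ± 2.65 FPKM in BLANK (SD, n = 3 each). KRT8 was the only one of the 5 epithelial markers called higher, in AgNPs and in COM against BLANK. HOXB13 was lower in both, at 298 ± 2.6 CPM in AgNPs and 204 ± 7.92 CPM in COM, against 373 ± 1.35 CPM in BLANK. EPCAM (log2 -0.51) and KRT18 (-0.16) were lower in COM. With DOC alone, HOXB13 (305 ± 7.52 CPM, log2 -0.29) and KRT18 (-0.20) were lower too, and no epithelial marker was called higher. AKR1C4 was not analysed here. The summed level of the 5 epithelial markers was 734 to 743 CPM in AgNPs, 663 to 719 CPM in DOC, 596 to 634 CPM in COM and 766 to 783 CPM in BLANK, while that of the 4 neuroendocrine markers in the table was 35.3 to 36.4 CPM in AgNPs, 30.3 to 31.8 CPM in DOC, 41.1 to 45.1 CPM in COM and 29.3 to 30.2 CPM in BLANK. The 6 fibroblast markers summed to 81.7 to 93.8 CPM in AgNPs, 99.9 to 116 CPM in DOC, 70.5 to 77.2 CPM in COM and 99.1 to 113 CPM in BLANK. In COM against BLANK, COL1A2 was lower (log2 -0.81), but 2 of the 4 fibroblast markers tested were called higher, COL3A1 (0.95) and PDGFRB (1.39). Both of the 2 neuroendocrine markers tested were also called higher there, beside 25.1% of all genes tested called higher and 24.5% lower. The 4 immune markers in the table summed to 38.9 to 45.2 CPM in AgNPs, 49.7 to 50.7 CPM in DOC, 49.9 to 57 CPM in COM and 41.3 to 45.5 CPM in BLANK, and 3 of 3 tested were called higher in COM. Most of the immune sum was CD68, which averaged 41.1 CPM in AgNPs, 47.6 in DOC, 50.7 in COM and 43 in BLANK. Most of the neuroendocrine sum was ENO2, at 35.2, 30.2, 42.3 and 29.7 CPM in the same order. COL3A1, PDGFRB, SYP, CD14 and LYZ were low, with average log2 CPM between -0.592 and 0.617. The part of these shifts, and of depth, in the results below was not tested.

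The first comparison, AgNPs against BLANK, addressed the response of the 8 genes to silver nanoparticles. All 8 rose, by 2.07-fold for AKR1C2 up to 21.8-fold for NMRAL2P. Over all genes tested, 30.9% were called changed (Benjamini-Hochberg adjusted p below 0.05) and 14.9% were called higher. The median log2 fold change of the 8 genes was 2.87, against 0.01 over all genes tested. Because the genes were chosen with earlier results known, this contrast is descriptive only. In each of the 8 genes every AgNPs library lay above every BLANK library, which 21.3% of all genes tested also showed; 21.2% lay entirely below. In this comparison 2 of 3 nuclear-retained RNAs rose and 10 of 10 ribosomal protein genes did not pass the test.

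On the rows counted, NQO1 (chromosome 16, 69709401 to 69726560) was by far the most abundant of the 8 genes and had 1 of the smallest relative rises. It measured 452, 432 and 444 CPM in AgNPs, against 195, 206 and 197 CPM in BLANK. The AgNPs libraries were all above the BLANK libraries with a narrow spread in both groups. The fitted log2 fold change was 1.15 ± 0.03 (SE, 2.22-fold, edgeR adjusted p = 1.66e-26). Most of its counts came from the RefSeq row NM_000903.2, which held 83.2 ± 0.491% of them in AgNPs and 82.1 ± 1.67% in BLANK (SD, n = 3 each), a difference below the replicate spread. These are bulk libraries, in which more cells expressing a gene and more RNA per cell cannot be told apart, nor can fewer cells of a type and less RNA per cell.

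OSGIN1 (chromosome 16, 83953240 to 83966332), an oxidative stress response gene that restrains cell growth, was represented by 1 RefSeq row. Its values were 55.5, 55.6 and 53.3 CPM in AgNPs, against 6.03, 6.65 and 5.72 CPM in BLANK. The groups were far apart, with a log2 fold change of 3.16 ± 0.07 (8.92-fold, edgeR adjusted p = 2.44e-29). NECAB2 overlaps OSGIN1 in the annotation and had 332 counts over all 12 libraries together, fewer than OSGIN1 had in any single AgNPs library (696 to 739). OSGIN2, its paralog, had a log2 fold change of 0.14 ± 0.05 (adjusted p = 0.0411), from 10.6 ± 0.309 FPKM in AgNPs and 9.48 ± 0.65 FPKM in BLANK.

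AKR1B1 and AKR1B10 are neighbours on chromosome 7. AKR1B10 (134527567 to 134541412), which reduces retinal and lipid aldehydes, was at 23.7, 21.3 and 26.2 CPM in AgNPs, against 1.53, 1.55 and 1.11 CPM in BLANK. It was low in every BLANK library and rose by 4.08 ± 0.13 on the log2 scale (16.9-fold, edgeR adjusted p = 1.1e-23). AKR1B1 (134442350 to 134459239), the aldose reductase that turns glucose into sorbitol, was at 3.68, 3.35 and 4.29 CPM in AgNPs, against 0.856, 1.51 and 0.754 CPM in BLANK. Its rise was 1.85 ± 0.22 on the log2 scale (3.61-fold, adjusted p = 1.58e-08). The level of AKR1B1 is partial: 2 of its 3 curated RefSeq transcripts have a row, and the remaining one, NM_001628, was not analysed here. The level and fold change of AKR1B1 are those of the rows counted, with 17 to 75 counts per library. AKR1B15, their near relative, had only 2 to 11 counts per library and a log2 fold change of 0.38 ± 0.47 (adjusted p = 0.601).

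The AKR1C genes stand side by side on chromosome 10. AKR1C1 (4963415 to 4983283), which inactivates progesterone, was at 16.4, 15.8 and 19.2 CPM in AgNPs, against 1.58, 1.73 and 1.86 CPM in BLANK. Its log2 fold change was 3.31 ± 0.12 (9.91-fold, edgeR adjusted p = 4.64e-22). AKR1C3 (5048781 to 5107686), which makes testosterone from androstenedione and also prostaglandin F, was at 15.4, 15.7 and 14.1 CPM in AgNPs, against 2.25, 3.23 and 2.08 CPM in BLANK. For both genes the groups were well separated, and AKR1C3 rose by 2.57 ± 0.13 on the log2 scale (5.95-fold, adjusted p = 1.11e-18). AKR1C3 has a row for 2 of its 3 curated RefSeq transcripts and AKR1C2 for 4 of 5, so their levels are those of the rows counted.

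AKR1C2 (4987775 to 5018000), which inactivates dihydrotestosterone, was the lowest of the 8 genes after AgNPs, at 1.2, 1.6 and 1.84 CPM, against 0.721, 0.886 and 0.621 CPM in BLANK. All AgNPs libraries were higher, but close to BLANK, with a log2 fold change of 1.05 ± 0.29 (2.07-fold, edgeR adjusted p = 0.00426). The call was lost on the FPKM scale (0.35, limma adjusted p = 0.1 with a pseudocount of 1; 0.66, adjusted p = 0.0798 with 0.1), and on RefSeq rows alone the log2 fold change was 3.20 (edgeR adjusted p = 9.34e-06).

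The rows behind AKR1C2 differed between the groups. Its 4 RefSeq rows held 12.1, 12.8 and 15.3 expected counts in AgNPs, against 2.25, 3 and 2 in BLANK. Its 5 rows with URS or BGIR identifiers (RNAcentral transcripts and transcripts named only by BGIR codes) held 4, 8 and 9 counts in AgNPs, against 14, 17 and 12 in BLANK. The RefSeq rows were thus higher in every AgNPs library, and the other rows lower in raw count at the smaller depth of AgNPs. In CPM of the linear total, the other rows averaged 0.532 in AgNPs and 0.632 in BLANK. A single BGIR row made up 29.1 ± 4.42% of AKR1C2 counts in AgNPs and 61.3 ± 12% in BLANK (SD, n = 3 each). AKR1C1 rested on RefSeq rows in every group, at 80.2 ± 4.49% in AgNPs and 70 ± 9.55% in BLANK.

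**Figure D1:**
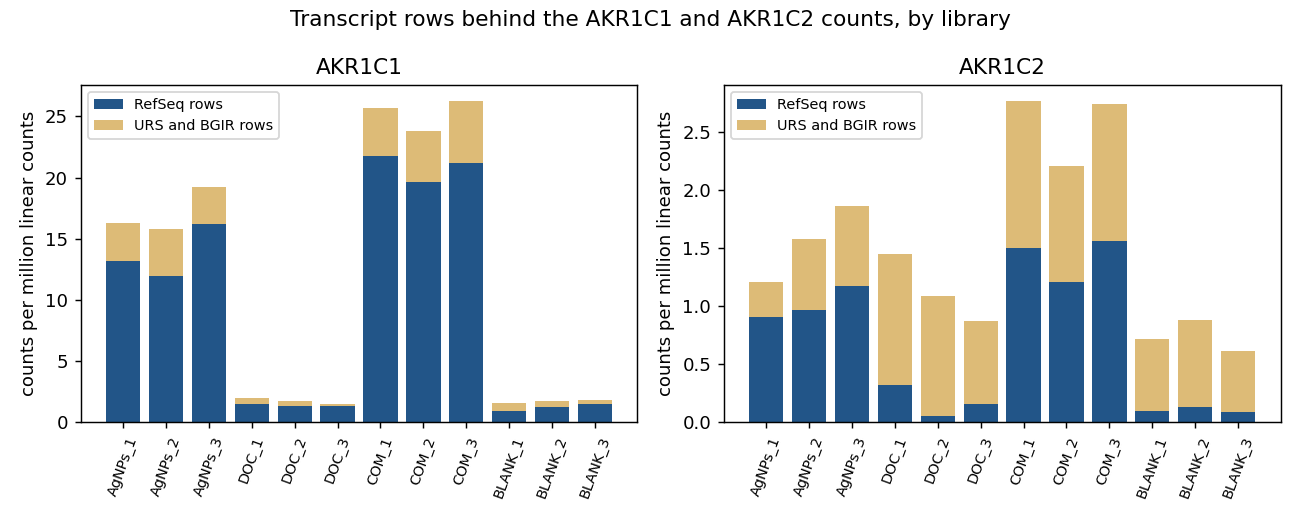
CPM of the linear total for AKR1C1 (left) and AKR1C2 (right) in each library (x axis), stacked by the source of the transcript rows; axes start at 0 and differ in range. AKR1C2 counts in BLANK sit mostly on URS and BGIR rows, and its RefSeq part averages 1.02 CPM in AgNPs and 0.107 CPM in BLANK.

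NMRAL2P (chromosome 3, 185959943 to 185980877) is a transcribed pseudogene related to NMRAL1, an NADPH sensor, and is known from other cells as an NRF2-induced transcript. It was at 19.7, 17.3 and 15.9 CPM in AgNPs, against 0.901, 0.798 and 0.71 CPM in BLANK. Of the 8 genes it had the highest fitted fold change, 4.45 ± 0.15 on the log2 scale (21.8-fold, edgeR adjusted p = 1.18e-23), and it ranked 14 of 19986 genes by fold change. The related coding gene NMRAL1 had a log2 fold change of 0.01 ± 0.08 (adjusted p = 0.969), with 48.8 ± 2.05 FPKM in AgNPs and 48.5 ± 1.92 FPKM in BLANK.

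**Figure D2:**
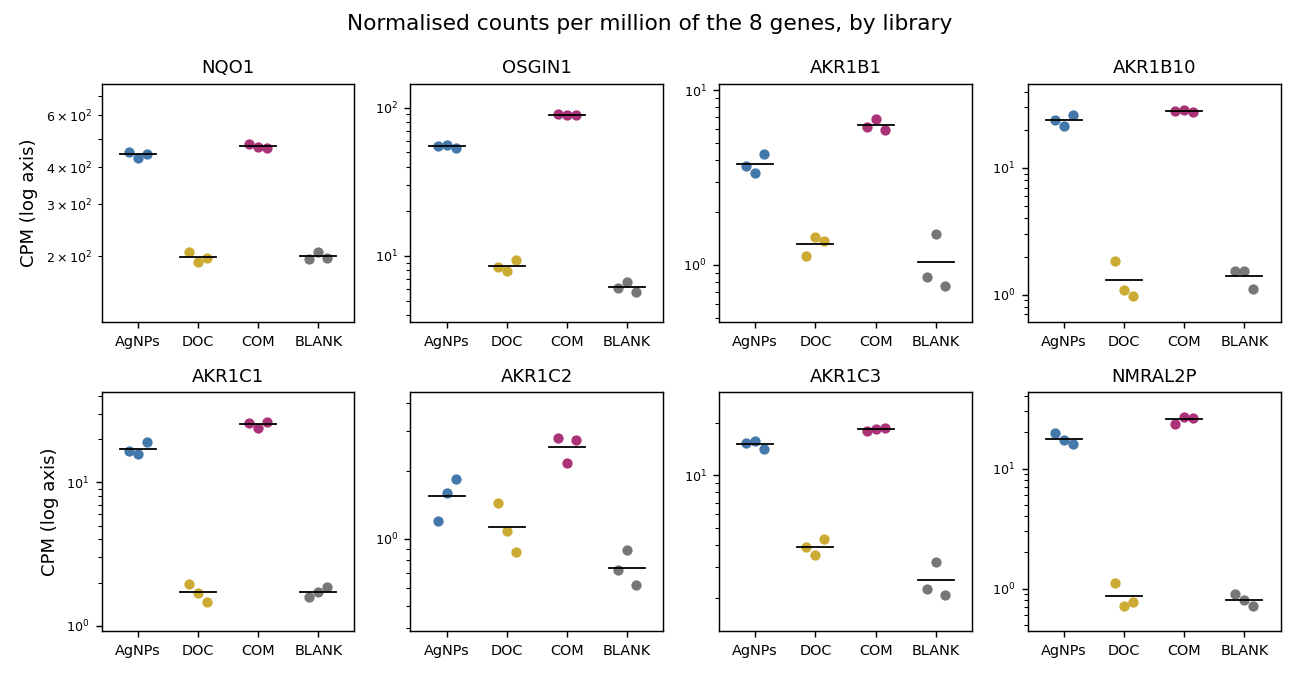
Normalised CPM (log y axes, each with its own range) of the 8 genes in every library; points are libraries and black lines are group means, with 3 libraries per group. AgNPs and COM libraries lie above BLANK in every panel, while DOC libraries overlap BLANK except for OSGIN1 and AKR1C3.

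DOC against BLANK asked what DOC alone did. Only 2 of the 8 genes rose, OSGIN1 and AKR1C3, and none fell. Over all genes tested 17.0% were called, 7.16% higher and 9.81% lower. The 3391 genes behind the 17.0% became 2204 without DOC replicate 2, and 1061 and 1103 with limma on FPKM, while the same number of the 8 genes was called in each. Here too 3 of 3 nuclear-retained RNAs rose, and 7 of 10 ribosomal protein genes fell. The same 2 genes were also the ones whose DOC libraries all lay above all BLANK libraries, which 14.7% of all genes tested showed.

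OSGIN1 was at 8.36, 7.87 and 9.41 CPM in DOC, against 6.03, 6.65 and 5.72 CPM in BLANK, a log2 fold change of 0.48 ± 0.09 (1.39-fold, edgeR adjusted p = 0.0003). AKR1C3 was at 3.89, 3.5 and 4.35 CPM in DOC, against 2.25, 3.23 and 2.08 CPM in BLANK, a log2 fold change of 0.63 ± 0.15 (1.55-fold, adjusted p = 0.00292). The lowest AKR1C3 value in DOC was only slightly above the highest in BLANK.

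NQO1, the gene of the 8 measured with the smallest error, was at 206, 191 and 197 CPM in DOC, against 195, 206 and 197 CPM in BLANK. The groups overlapped, and the log2 difference of -0.01 ± 0.03 had an edgeR adjusted p of 0.852. NMRAL2P was at 1.12, 0.72 and 0.767 CPM in DOC, overlapping its BLANK values, with a difference of 0.11 ± 0.26 (adjusted p = 0.838). AKR1B10 (-0.10 ± 0.23, adjusted p = 0.808) and AKR1C1 (-0.01 ± 0.18, adjusted p = 0.985) also overlapped BLANK. AKR1B1 (0.34 ± 0.25, adjusted p = 0.389) and AKR1C2 (0.60 ± 0.28, adjusted p = 0.15) had larger estimates, with errors like those of NMRAL2P and AKR1B10. At these low levels, errors of 0.18 to 0.28 do not exclude moderate changes of any of these genes other than NQO1.

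COM against BLANK asked what both agents did together. All 8 genes rose again, with log2 fold changes from 1.24 for NQO1 to 4.99 for NMRAL2P. Over all genes tested 49.6% were called and 25.1% were called higher, so a rise was common in this comparison. In the same comparison 3 of 3 nuclear-retained RNAs rose (NEAT1 by 1.32 on the log2 scale) and 10 of 10 ribosomal protein genes fell, and their part in the result was not tested. The median of the 8 genes was 3.36, against 0.03 over all genes tested, a contrast with the same limit of choice. NMRAL2P rose 31.8-fold, AKR1B10 20.1-fold, AKR1C1 14.6-fold and OSGIN1 14.5-fold. AKR1C3 rose 7.24-fold, AKR1B1 6.02-fold, AKR1C2 3.44-fold and NQO1 2.36-fold. No COM library overlapped a BLANK library in any of the 8 genes, which 29.4% of all genes tested showed in the same direction.

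**Figure D3:**
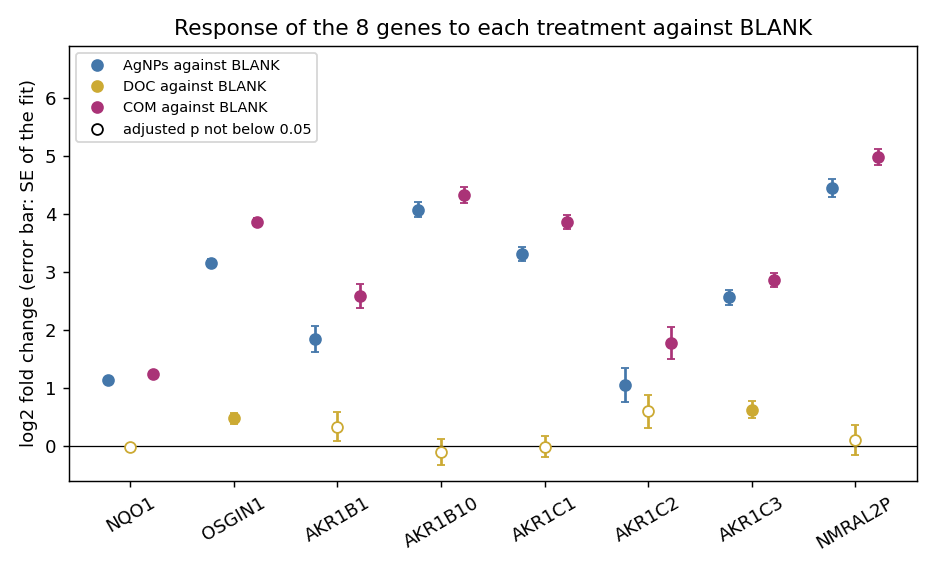
Log2 fold change of each gene (x axis) against BLANK for AgNPs, DOC and COM, with the standard error of the edgeR fit; open points have an adjusted p that is not below 0.05. The AgNPs and COM points lie between 1.05 and 4.99, and the DOC points between -0.10 and 0.63.

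COM against DOC shows the silver nanoparticle response in cells that also had DOC. All 8 genes rose, with 36.6% of all genes called and 18.1% called higher. The log2 fold changes were 1.25 ± 0.03 for NQO1, 3.38 ± 0.06 for OSGIN1, 2.25 ± 0.20 for AKR1B1 and 4.43 ± 0.14 for AKR1B10. For the other genes they were 3.88 ± 0.12 in AKR1C1, 1.19 ± 0.26 in AKR1C2, 2.23 ± 0.12 in AKR1C3 and 4.88 ± 0.15 in NMRAL2P.

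COM against AgNPs asked what DOC added where silver nanoparticles were present. The COM libraries lay above the AgNPs libraries in all 8 genes, which 17.9% of all genes tested showed, and all 8 were called higher, against 21.9% of all genes called and 9.87% called higher. The sizes were modest, between 0.09 and 0.74 on the log2 scale. OSGIN1, AKR1B1 and AKR1C1 kept the call in all 22 alternative analyses. NMRAL2P lost it in 1 and NQO1, AKR1B10, AKR1C2 and AKR1C3 lost it in 9 to 11, so that 3 to 8 genes were called depending on the analysis. The count was 4 or 5 without AgNPs replicate 1 or 2 or any COM replicate. In the same comparison 3 of 3 nuclear-retained RNAs rose and 7 of 10 ribosomal protein genes fell, and their part in the result was not tested.

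OSGIN1 was at 90.7, 88.8 and 88.5 CPM in COM, against 55.5, 55.6 and 53.3 CPM in AgNPs. The replicates were tight in both groups, and the log2 difference was 0.70 ± 0.05 (1.63-fold, edgeR adjusted p = 1.26e-12). AKR1C1 was at 25.7, 24 and 26.4 CPM in COM, against 16.4, 15.8 and 19.2 CPM in AgNPs (0.56 ± 0.09, 1.48-fold, adjusted p = 1.51e-05). NMRAL2P was at 23.7, 27 and 26.6 CPM in COM, against 19.7, 17.3 and 15.9 CPM in AgNPs (0.55 ± 0.09, 1.46-fold, adjusted p = 3.91e-05). AKR1B1, with far fewer counts, was at 6.14, 6.81 and 5.93 CPM in COM, against 3.68, 3.35 and 4.29 CPM in AgNPs (0.74 ± 0.18, adjusted p = 0.00314).

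The other 4 genes were separated by narrower margins. NQO1 was at 481, 468 and 465 CPM in COM, against 452, 432 and 444 CPM in AgNPs, a difference of 0.09 ± 0.03 (edgeR adjusted p = 0.0332). AKR1B10 was at 28.2, 28.9 and 27.6 CPM in COM, against 23.7, 21.3 and 26.2 CPM in AgNPs (0.25 ± 0.09, adjusted p = 0.0481). AKR1C3 was at 18, 18.4 and 18.6 CPM in COM, against 15.4, 15.7 and 14.1 CPM in AgNPs (0.28 ± 0.10, adjusted p = 0.0422). AKR1C2 was at 2.8, 2.18 and 2.74 CPM in COM, against 1.2, 1.6 and 1.84 CPM in AgNPs (0.73 ± 0.26, adjusted p = 0.0401), and on RefSeq rows alone its difference was 0.51 (adjusted p = 0.342).

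**Figure D4:**
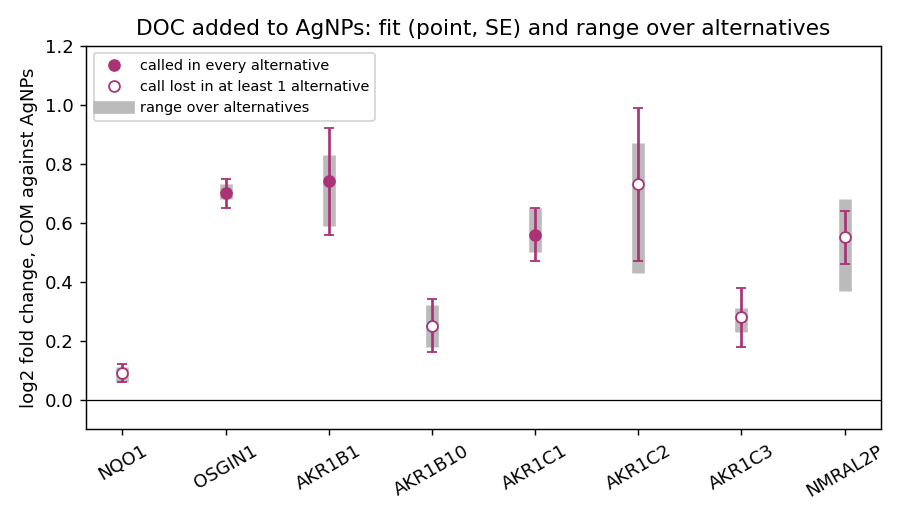
Log2 fold change of each gene in COM against AgNPs: points with standard errors are the edgeR fit, grey bars span the alternative analyses, and open points lost the call in at least 1 of them. All bars stay above 0, and OSGIN1, AKR1B1 and AKR1C1 are filled.

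The interaction compares the DOC effect in cells with silver nanoparticles to the DOC effect in cells without them, on the log2 scale. None of the 8 genes was called by edgeR, where 1.11% of all genes were. At an unadjusted p below 0.05 there were 3 (NQO1, OSGIN1 and AKR1C1), and DESeq2 and limma on FPKM also called 0. The estimates were 0.10 ± 0.04 for NQO1, 0.23 ± 0.11 for OSGIN1, 0.57 ± 0.21 for AKR1C1 and -0.35 ± 0.18 for AKR1C3, the only negative one of the 8 in this fit. The others lay between 0.14 and 0.44 with errors of 0.25 to 0.39, and on RefSeq rows alone AKR1C2 was at -0.20. These values did not pass the test, which does not show that they are 0.

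Levels between genes are compared per length, in FPKM. The AKR1B1 level lacks the transcript NM_001628, so the place of AKR1B1 in each order is that of its counted rows only. The same holds for AKR1C2 and AKR1C3, each of which also has a curated transcript without a row. In BLANK, NQO1 stood at 79.3 ± 2.5 FPKM, OSGIN1 at 3.28 ± 0.265 and AKR1C3 at 2.21 ± 0.554, and the other 5 genes lay between 0.723 and 0.933 with overlapping libraries (SD, n = 3). After AgNPs the order below NQO1 (177 ± 4.33 FPKM) and OSGIN1 (29.5 ± 0.601) was NMRAL2P and AKR1B10, both at 15.6, then AKR1C3 at 13.3 and AKR1C1 at 10.9, then AKR1B1 at 2.42 and AKR1C2 at 1.22. NMRAL2P overlapped AKR1B10 in that order, and AKR1C3 overlapped AKR1C1. In COM the order was the same, from 188 ± 2.9 FPKM for NQO1 and 48 ± 0.669 for OSGIN1 down to 1.99 ± 0.197 for AKR1C2, and only AKR1C3 (16.1) and AKR1C1 (15.8) overlapped. In DOC, OSGIN1 (4.63 ± 0.444 FPKM) and AKR1C3 (3.45 ± 0.392) again followed NQO1 (79.6 ± 2.55), with all others at 0.727 to 1.17.

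The place of NMRAL2P in this order rests partly on a short URS row, which held 7, 7.69 and 6.51 FPKM in AgNPs beside 9.4, 7.89 and 7.46 FPKM on its RefSeq row. By absolute level the ranking of responses differed from that by fold change. NQO1 gained 97.6 FPKM in AgNPs over BLANK, OSGIN1 26.2, NMRAL2P 14.9, AKR1B10 14.6, AKR1C3 11.1 and AKR1C1 9.96, whereas AKR1B1 gained 1.7 and AKR1C2 0.48. NQO1 made up 66.7 ± 0.183% of the summed FPKM of the 8 genes in AgNPs, 86.2 ± 0.943% in DOC, 60 ± 0.314% in COM and 89.3 ± 1.16% in BLANK. That sum and the AKR1B1 gain lack the AKR1B1 transcript NM_001628. A curated transcript each of AKR1C2 and AKR1C3 also had no row, so their gains and the sums are those of the rows counted. The 3 AKR1C genes together reached 25.4 ± 0.975 FPKM in AgNPs, 5.67 ± 0.709 in DOC, 34 ± 0.91 in COM and 3.87 ± 0.761 in BLANK.

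Close relatives were compared by the log2 ratio of their CPM in each library. The log2 ratio of AKR1B10 to AKR1B1 was 2.68, 2.67 and 2.61 in AgNPs, against 0.84, 0.04 and 0.56 in BLANK, a difference of 2.18 with no overlap. The AKR1B1 side of this ratio lacks the transcript NM_001628 and rests on 44 to 56 counts in AgNPs and 17 to 34 counts in BLANK. In COM the same ratio averaged 2.17 ± 0.07 against 0.48 ± 0.40 in BLANK (SD, n = 3 each). The log2 ratio of AKR1C1 to AKR1C3 averaged 0.18 ± 0.23 in AgNPs and -0.53 ± 0.37 in BLANK, and -1.19 ± 0.32 in DOC against the same BLANK values. The AKR1C1 to AKR1C3 ratio was thus higher in AgNPs and lower in DOC, with no overlap of libraries in either. With 3 libraries a group, an exact two-sided permutation test cannot go below p = 0.1, which these differences reached (0.12 adjusted over 12 tests).

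The ratios that involve AKR1C2 depended on the rows counted. AKR1C1 to AKR1C2 was higher by 2.27 on the log2 scale in AgNPs than in BLANK over all rows, and by 0.26 over RefSeq rows. AKR1C2 to AKR1C3 was lower by 1.55 in AgNPs (a difference of -1.55) over all rows, and higher by 0.65 over RefSeq rows. No order of response between AKR1C2 and its relatives is therefore given.

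The nearest genes by pattern over the 12 libraries were found by the root mean square difference of centred log2 CPM among at least 13807 other genes. NQO1 was nearest to SLC48A1, a heme transporter (0.06), UGDH, which makes UDP-glucuronate (0.07), and TXNRD1, the thioredoxin reductase (0.08). OSGIN1 was nearest to SESN2, an inhibitor of mTORC1 (0.07), at a distance well below that of CLIP4 (0.17) and TACR1-AS1 (0.19). AKR1B10 and NMRAL2P were among each other's 3 nearest genes (0.25), with LOC102723825 (0.25 to both) and the metallothionein MT1X (0.25 and 0.34), whose paralogs make its count uncertain. AKR1C1 was nearest to TACR1-AS1 (0.20), OSGIN1 (0.27) and MT2A (0.29), and AKR1C3 to VLDLR-AS1 (0.20), FLRT1 (0.21) and ALDH3A1 (0.23). AKR1B1 was nearest to TSC22D3 (0.23), CDKN1A (0.24) and ABHD4 (0.24), and AKR1C2 to CCNA1 (0.20), CREBRF (0.20) and ERN1 (0.21), both members with low counts. These distances describe the 12 libraries, which share the 4 treatments and their depths.

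Other genes of the same pathway were read from lists of known functions. Of 26 other NRF2 targets, 25 rose after AgNPs, none fell and 1 did not pass, with a median log2 fold change of 1.02. HMOX1, which breaks down heme, rose by 5.34 ± 0.04, TRIM16L by 2.50 ± 0.05, GCLM, a subunit of the enzyme that starts glutathione synthesis, by 1.71 ± 0.04, TXNRD1 by 1.28 ± 0.03, and SRXN1, which repairs peroxiredoxins, by 1.08 ± 0.04. After DOC 3 of the 26 rose, 4 fell and 19 did not pass (median -0.02). In COM against BLANK 23 rose and 3 did not pass (median 1.11), and in COM against AgNPs 10 rose, 1 fell and 15 did not pass (median 0.10). Over all genes tested, 14.9% were called higher after AgNPs and 7.16% after DOC, with 9.81% lower after DOC. The share called higher was 25.1% in COM against BLANK and 9.87% in COM against AgNPs.

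Among the aldo-keto reductases and carbonyl reductases outside the 8 genes the changes went both ways. Of 9 tested genes of the aldo-keto reductase superfamily, 1 rose after AgNPs (KCNAB2, a potassium channel subunit, 0.59 ± 0.06), 1 fell (KCNAB1, -0.37 ± 0.09) and 7 did not pass, with a median of 0.07. AKR1A1, the aldehyde reductase, was at 34.6 ± 1.7 FPKM in AgNPs and 32.2 ± 0.641 FPKM in BLANK (0.12 ± 0.05, edgeR adjusted p = 0.0906). Of 15 other quinone and carbonyl reductases, 5 rose, 3 fell and 7 did not pass. PTGR1, a prostaglandin reductase, rose by 1.06 ± 0.14, NQO2, the paralog of NQO1, by 0.73 ± 0.07 and CBR1, a carbonyl reductase, by 0.38 ± 0.05, while CBR3 was at 0.19 ± 0.12 (adjusted p = 0.268). In COM against AgNPs, CBR1 fell by 0.28 on the log2 scale (SE 0.06, adjusted p = 0.000256) and NMRAL1 fell by 0.40 (SE 0.09, adjusted p = 0.00651).

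Of 10 regulators of the pathway, 7 rose after AgNPs and 3 did not pass (median 0.39), where 14.9% of all genes tested were called higher. The small MAF genes MAFF and MAFG, whose products pair with NRF2, rose by 1.51 ± 0.06 and 1.15 ± 0.04, and SQSTM1, an autophagy receptor that binds KEAP1, by 1.39 ± 0.03. NFE2L2, which encodes NRF2, was at 40.4 ± 0.255 FPKM in AgNPs and 27.8 ± 1.43 FPKM in BLANK (0.55 ± 0.04, edgeR adjusted p = 1.5e-14), and KEAP1 had a log2 fold change of 0.16 ± 0.05 (adjusted p = 0.0086). After DOC, KEAP1 fell by 0.26 on the log2 scale (SE 0.04, adjusted p = 0.000183), and NFE2L2 was at 0.09 ± 0.04 (adjusted p = 0.0814). MAFF and MAFG rose with DOC too, by 0.36 ± 0.07 (edgeR adjusted p = 0.000333) and 0.21 ± 0.04 (adjusted p = 0.00037). The other 7 of the 10 regulators did not pass after DOC.

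**Figure D5:**
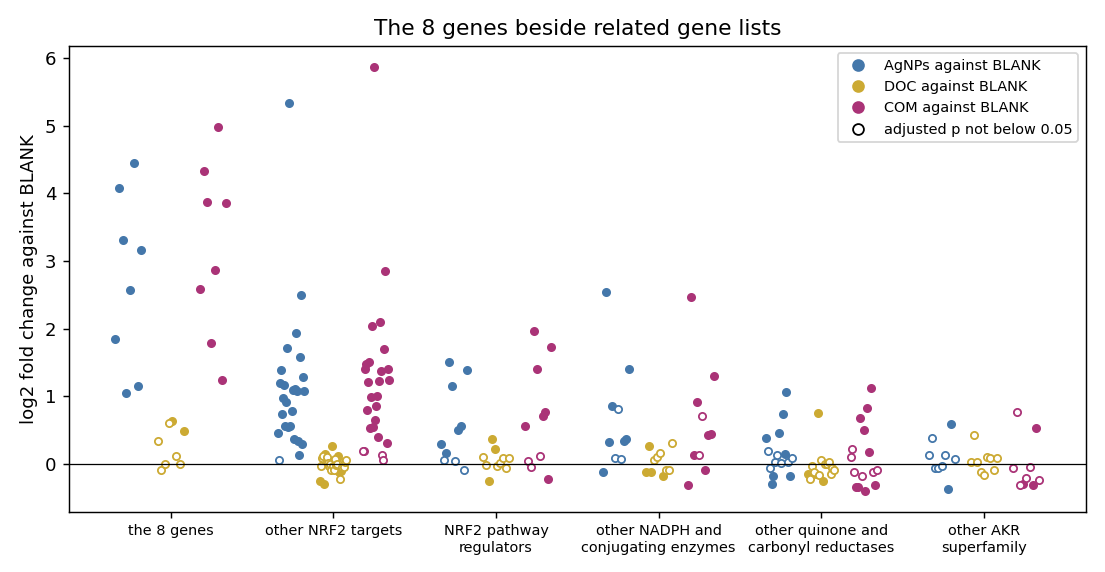
Log2 fold change against BLANK of the 8 genes and of the tested genes of 5 related lists, 1 point per gene, for AgNPs, DOC and COM; open points have an adjusted p that is not below 0.05, and CYP4F3 and CYP4F11, at 0 in every BLANK library, are left out. The median of the 8 genes after AgNPs is 2.87, and that of the other NRF2 targets is 1.02. Genes and lists were chosen with earlier results of these data known.

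Among enzymes that share substrates or cofactors with the 8 genes, 8 of 12 tested NADPH-handling and drug-conjugating enzymes rose after AgNPs, 1 fell and 3 did not pass (median 0.59). ALDH3A1, an aldehyde dehydrogenase, was at 420 ± 8.7 FPKM in AgNPs and 72 ± 1.86 FPKM in BLANK (2.54 ± 0.03, edgeR adjusted p = 1.34e-38), and EPHX1, an epoxide hydrolase, rose by 0.85 ± 0.04. Among 9 tested steroid and prostaglandin partners 3 rose, 1 fell and 5 did not pass. RDH10, a retinol dehydrogenase, rose by 0.42 ± 0.05 and SRD5A3, a steroid reductase family member, by 0.26 ± 0.06. The counts of HSD17B3, which makes testosterone as AKR1C3 does, fell by 0.39 (SE 0.11, edgeR adjusted p = 0.0107). In FPKM the HSD17B3 libraries overlapped, at 1.26 ± 0.174 in AgNPs and 1.47 ± 0.0902 in BLANK, and which of its rows hold the counts was not examined. In the AHR list 4 of 5 rose, among them AHR itself (0.80 ± 0.04), CYP1B1 (0.65 ± 0.06) and TIPARP (0.35 ± 0.03).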

How the data were processed

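RNA of 12 PC3 libraries was measured. The authors deposited 1 table with 221796 transcript rows, of which 177700 are linear; the submitters' processing notes name HISAT2, Bowtie2 2.2.5, RSEM and GRCh38 without the role of each. The deposited count columns hold expected counts per transcript. The deposited expression columns of linear rows were read as FPKM from their values, since the header gives no unit, and 10 columns of group means were not used. Expected counts were summed by gene over linear rows and rounded. The test was that of edgeR 4.0.16, run in R 4.3.3 (TMM, filterByExpr, robust quasi-likelihood fit over all 12 libraries, 1 coefficient per group), with Benjamini-Hochberg adjustment over 19986 genes and a threshold of 0.05; SE is that of the log2 fold change. The alternatives were DESeq2 1.42.0, RLE factors, other filters, a replicate term, fewer libraries, RefSeq rows only, close paralogs summed, and limma 3.58.1 on log2(FPKM + 1) or log2(FPKM + 0.1). FPKM fold changes on such a scale understate changes of low genes. Depth was 10996446 to 22769479 counts; the limit of 3 counts covers counting error only. Scripts were tested on simulated data. The members, lists, tests and named genes were chosen with earlier results of these data known: all 8 genes, 15 related genes, per list the 3 genes of smallest adjusted p after AgNPs, and the 3 nearest genes by pattern. TACR1-AS1, VLDLR-AS1 and LOC102723825 are named by symbol alone. Strand use in the counting is not given in the sources used here.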

Additional observations from a re-analysis of the deposited data

Results flagged for a closer look

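The DOC effect differed between cells with and without AgNPs (interaction on the log2 scale, edgeR adjusted p below 0.05) in 12 listed genes, none of them among the 8. Of all genes tested 1.11% passed. Among the listed genes, 20 of 26 other NRF2 targets and 8 of 10 regulators did not pass. The alternative analyses, under which the total of called genes fell to as few as 49, were read gene by gene only for the 8 genes. In 6 other NRF2 targets the estimate was positive: SRXN1 had 0.43 ± 0.06 (SE, adjusted p = 2.96e-05), BLVRB 0.37 ± 0.09 (0.043), GCLM 0.34 ± 0.06 (0.00247), TRIM16L 0.32 ± 0.08 (0.0415), HMOX1 0.27 ± 0.06 (0.0244) and FTL 0.23 ± 0.05 (0.0323). Among the regulators it was 0.26 ± 0.04 for SQSTM1 (0.000328) and 0.20 ± 0.05 for NFE2L1 (0.0201), and it was 0.20 ± 0.05 for AHR (0.0334) and 0.24 ± 0.04 for the nuclear RNA NEAT1 (0.000476). The estimate was negative for ALDH3A1 at -0.33 ± 0.04 (4.51e-06) and for HOXB13 at -0.25 ± 0.04 (0.000497).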

How the results depend on the processing

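Of 1035 values of the 8 genes under the alternatives, 970 kept their direction and their side of the threshold, 44 lost a call and 21 changed sign. In AgNPs and COM against BLANK and in COM against DOC, 2 of 525 lost a call, both AKR1C2 on the FPKM scale, and none changed sign. For COM against AgNPs the genes called fell to 4 with DESeq2, 4 with no filter, 5 with the replicate block, 4 and 3 with limma on FPKM, and 4 to 8 with 1 library left out (under 8 without any of the AgNPs or COM libraries). Genes called for DOC, 3391 in all, were 1061 and 1103 with limma and 2204 to 4027 with 1 library left out, the lowest without DOC replicate 2. The interaction's 221 were 146 with DESeq2, 54 and 49 with limma, and 115 to 269 with 1 library left out, lowest without AgNPs replicate 2 and also lower by over 1.5 times without AgNPs replicate 1 or 3 or COM replicate 2 or 3; the cause was not tested. The sign changes were small values that passed no test: for DOC, NQO1 was 0.00 on RefSeq rows and 0.01 with limma (both pseudocounts), AKR1C1 0.15, 0.10, 0.19 and, with paralogs summed, 0.21, NMRAL2P -0.01 and -0.04 with limma, and AKR1B10 0.03 with paralogs summed. With 1 library left out these ranged from -0.04 to 0.01 for NQO1, from -0.44 to 0.07 for AKR1B10, from -0.11 to 0.08 for AKR1C1 and from -0.11 to 0.22 for NMRAL2P. AKR1C2's interaction was -0.20 on RefSeq rows and -0.02 to 0.35 with 1 library left out. On RefSeq rows the AKR1C2 to AKR1C3 difference was 0.65 in AgNPs and 0.86 in COM; in DOC it ranged from -0.26 to 0.18 with 1 library left out. Same-numbered libraries correlated at -0.111 to 0.049, so the numbers were not read as pairs; the replicate block moved no count but that of COM against AgNPs by over 1.5 times. Counts near 1 CPM limit AKR1B1 and AKR1C2.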

Other observations

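CYP4F11 and CYP4F3, fatty acid hydroxylases of the cytochrome P450 family listed beside the 8 genes, had no count in any BLANK library. CYP4F11 had 43, 34 and 29 counts in AgNPs, 3, 1 and 0 in DOC and 42, 38 and 59 in COM, against 0 in all 3 BLANK libraries, which were the deepest. CYP4F3 had 12, 13 and 15 counts in AgNPs, 0, 1 and 0 in DOC and 20, 22 and 8 in COM. Both are near relatives, so their counts are uncertain. CYP1A1, an AHR target outside the rule for named genes and chosen after its values were seen, was at 3.59 ± 0.236 FPKM in AgNPs, 3.73 ± 0.461 in DOC, 5.85 ± 0.172 in COM and 1.8 ± 0.255 in BLANK (SD, n = 3 each). It rose after DOC alone by 1.03 ± 0.11 on the log2 scale (edgeR adjusted p = 5.68e-08), and after AgNPs by 0.99 ± 0.12 (adjusted p = 3.88e-08).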
